A study of Homo sapiens with 6 samples.

Results

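Glycolysis and the response to low oxygen share much of their gene set, and 34 genes of both were examined in lung cancer cells given norepinephrine (NE). The list was put together by gene name. It holds 4 HIF factors and oxygen sensors, 8 HIF target genes outside glycolysis, 5 genes of glucose and lactate transport or of the control of glycolysis, and 17 enzymes of the pathway from glucose to lactate. Of these 34 genes, 33 were found among the 26025 genes of the table, and CA9 was not analysed here. A mean of at least 10 normalized counts was needed for testing, which 31 members and 15013 genes of the whole table reached. The oxygen sensor EGLN3 and the aldolase ALDOC were below it.

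The established line NCI-H1299 comes from a human lung cancer of the non-small cell kind. After 8 to 12 h of starvation, the cells were kept in medium with 2% serum for 48 h, with vehicle (Ctrl, 3 libraries) or with 10 µM NE (NE-treated cells, 3 libraries). The sample records name the vehicle both as DMSO and as PBS. Nothing in the sources says that the 3 libraries of a group came from separate cultures, so the p-values measure the spread between these libraries, which may be technical. In bulk RNA, a change in the cells that make up a culture cannot be told apart from a change of RNA per cell.

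HIF transcription factors pair an oxygen-labile alpha subunit, HIF1A or EPAS1 (HIF-2 alpha), with the stable partner ARNT. Where oxygen is present, prolyl hydroxylases of the EGLN family mark the alpha subunit for destruction through VHL, a step that acts on the protein and leaves the mRNA in place. Stabilised HIF binds hypoxia response elements with the core letters ACGTG or GCGTG, and many glycolytic genes are textbook targets. In lung cancer cells glycolysis is known for turning glucose into lactate even in the presence of oxygen. NE acts through adrenergic receptors, of which the beta receptors raise cAMP and activate CREB, a factor that binds the element TGACGTCA.

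The sequences below are the 250 bases before the RefSeq start of 4 members (GRCh38.p14), printed 5′ to 3′ on the strand of the gene. EPAS1 and EGLN1 had the largest rises among the members, PGK1 fell with and without correction for GC content, and LDHA did not pass the test and was the single member with a full CREB element. They were picked for printing after these values had been seen. EPAS1 is at chr2:46297157-46297406 on the plus strand, EGLN1 at chr1:231422288-231422537 on the minus strand, PGK1 at chrX:78103998-78104247 on the plus strand and LDHA at chr11:18394313-18394562 on the plus strand. The stretches of EPAS1 and PGK1 lie inside the longer spans that GENCODE v44 gives to these genes. Capitals mark ACGTG or GCGTG, their reverse complements CACGT and CACGC, and the full TGACGTCA.
EPAS1: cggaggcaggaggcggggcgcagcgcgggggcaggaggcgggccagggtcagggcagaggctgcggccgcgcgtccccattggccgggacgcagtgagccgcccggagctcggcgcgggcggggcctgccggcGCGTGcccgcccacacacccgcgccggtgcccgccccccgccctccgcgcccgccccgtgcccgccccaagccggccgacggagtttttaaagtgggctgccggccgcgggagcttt
EGLN1: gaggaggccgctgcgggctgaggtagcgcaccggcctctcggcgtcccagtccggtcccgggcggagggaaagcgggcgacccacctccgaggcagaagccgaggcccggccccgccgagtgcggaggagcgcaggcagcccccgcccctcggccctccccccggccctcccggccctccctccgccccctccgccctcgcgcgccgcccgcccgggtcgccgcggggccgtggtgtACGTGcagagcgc
PGK1: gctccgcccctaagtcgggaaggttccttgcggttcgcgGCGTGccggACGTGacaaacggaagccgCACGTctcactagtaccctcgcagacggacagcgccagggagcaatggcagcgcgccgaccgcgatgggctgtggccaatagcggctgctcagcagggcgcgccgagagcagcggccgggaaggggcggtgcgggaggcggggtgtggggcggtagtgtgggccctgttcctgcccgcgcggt
LDHA: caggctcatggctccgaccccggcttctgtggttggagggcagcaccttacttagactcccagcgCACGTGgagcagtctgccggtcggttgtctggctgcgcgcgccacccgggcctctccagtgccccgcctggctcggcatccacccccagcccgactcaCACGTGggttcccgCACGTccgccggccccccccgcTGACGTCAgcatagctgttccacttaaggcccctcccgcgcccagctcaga

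The EPAS1 and EGLN1 stretches each held 1 match to the core, PGK1 held 3, and LDHA held 5 together with 1 TGACGTCA. CACGTG reads the same on both strands and counts as 2 matches. Over the whole RefSeq windows, from 250 bases before to 50 bases after a start, the core was found in 40 of the 59 windows of the 31 members with a window, or 67.8%. The share was 60.83% of the 15296 windows of tested genes and 48.45% of all 35116 windows. The median GC content of the windows was 69%, 65% and 58.67% in the same order, and the shares were not adjusted for it. Several members have more than 1 window, so windows are not independent. TGACGTCA was found in 1 of the 59 member windows, against 2.765% of the windows of tested genes. A match is a description of the letters and not evidence of binding.

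The depth was alike in the 6 libraries. Each Ctrl library had 17373654 to 17979206 reads on genes, and each NE library 16852751 to 17325039. Ctrl replicate 3 stood apart, with 7305 genes at 0 against 3954 to 4833 in the other 5 libraries. Genes rich in G and C tended to lower log2 fold changes, with a Spearman correlation between fold change and exon GC of -0.644 over 14955 tested genes, given as a description. A GC correction removes the trend of each library on exon GC content, and its values are given beside the uncorrected ones for the members described. Of the epithelial markers, KRT8 and KRT18 were abundant, with a summed marker level of 27658 to 38810 normalized counts in Ctrl and 11914 to 14054 in NE libraries. KRT19, EPCAM and CDH1 were below 10 normalized counts in every library, and whether the fall of KRT8 and KRT18 bears on the results was not tested. The leukocyte markers CD68 and CD14 summed to at most 4.15 normalized counts. Sums were 22.3 to 52.9 for 3 endothelial and 10.9 to 34.6 for 3 fibroblast markers. The mesenchymal marker VIM had 60813 to 78252 in Ctrl and 45300 to 58317.5 in NE libraries. Log2 fold changes were -0.38 for VIM, 0.64 for CDH2 and 0.77 for FN1 (limma adjusted p of 0.0462, 0.00172 and 0.000458). After the GC correction VIM and CDH2 did not pass (-0.23 and 0.16), and FN1 was at 0.49 (adjusted p = 0.00244).

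The listed genes were mostly lower in NE-treated cells without the GC correction, with most enzymes lower and HIF1A, EPAS1 and EGLN1 higher. By limma with Benjamini-Hochberg adjustment over the 15013 tested genes, 6 of 31 tested members (19.4%) rose and 17 (54.8%) fell at an adjusted p under 0.05, while 8 did not pass. Of all tested genes 24.6% rose and 25.5% fell. The share of members that rose was thus near the background, and the share that fell was above it without the GC correction. The median log2 fold change was -0.49 over the members and 0.01 over all tested genes. With the further criterion of a log2 fold change of at least 1 in size, 2 members rose (EPAS1 and EGLN1) and 1 fell (SLC16A3), against 7.47% and 6.55% of all tested genes. With the GC correction the member that fell past this criterion was PGK1 in place of SLC16A3. In 6 members every NE library lay above every Ctrl library and in 17 every NE library lay below, against 29.7% and 28.9% of all tested genes.

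Once corrected for GC, 5 members rose (EPAS1, EGLN1, BNIP3L, KDM3A and SLC2A1) and 6 fell (SLC16A3, PGK1, PGAM1, ENO1, PKM and LDHA), against 13.0% and 19.0% of 14955 genes. The share of members that fell was then close to the background. The median of the members was then -0.21, and that of all genes -0.04. The median exon GC content was 41.6% in the 6 members that rose, 55.1% in the 17 that fell and 47.5% over all tested genes. Without Ctrl replicate 3, and without a GC correction, 7 members rose and 19 fell, of which 3 and 6 were past the fold criterion. The part of GC content and of Ctrl replicate 3 in the results was not tested further.

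**Figure D1:**
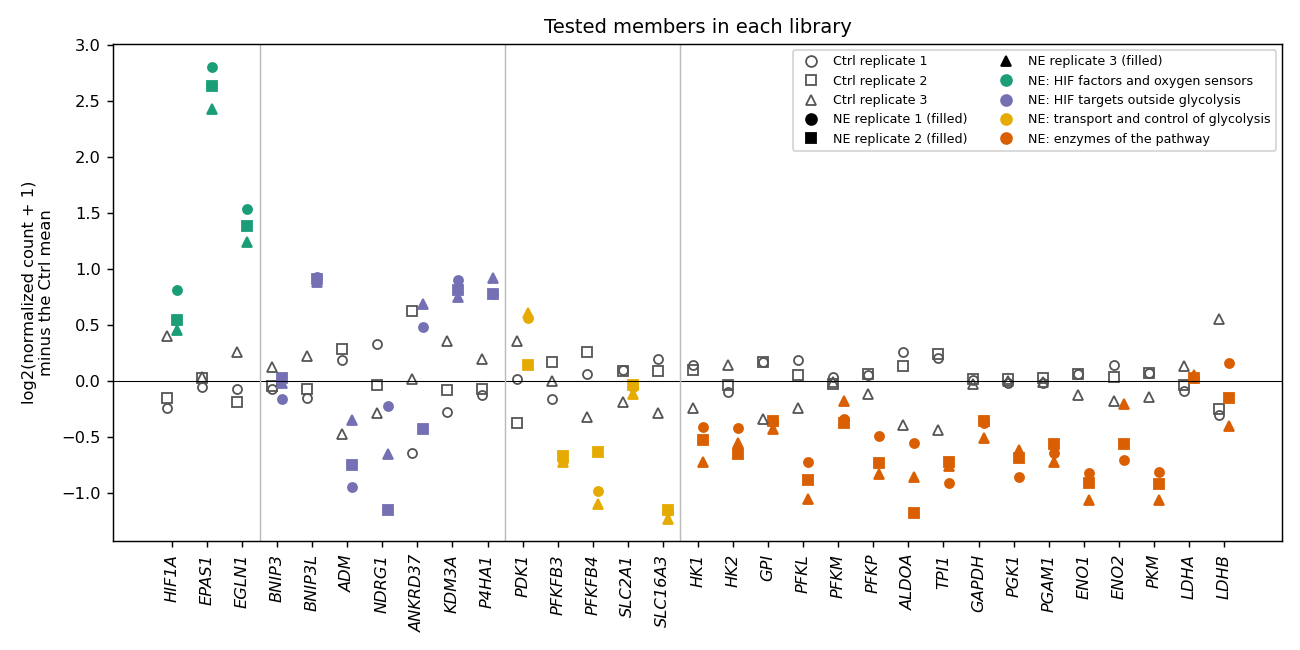
Each of the 31 tested members in each library, as log2(normalized count + 1) minus the mean of the 3 Ctrl libraries. Open grey symbols are Ctrl libraries and filled coloured symbols are NE libraries, with the symbol shape for the replicate and the colour for the role. EPAS1 and EGLN1 stand above all Ctrl libraries, and most enzymes stand below.

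The HIF factors and oxygen sensors were higher in NE-treated cells, with 3 of 3 tested members past the test, against 24.6% of all tested genes, and 2 of them also after the GC correction, against 13.0%. EPAS1 was the member with the largest change. EPAS1 (ENSG00000116016) encodes HIF-2 alpha. Ctrl replicates 1 to 3 had 46.1, 48.7 and 49.0 normalized counts and NE replicates 1 to 3 had 341, 302 and 261. All NE libraries were above all Ctrl libraries, and the mean rose 6.29-fold. The log2 fold change was 2.62 (standard error, SE, of 0.17, limma adjusted p = 2.33e-05), and 2.94 after the GC correction (adjusted p = 4.67e-06).

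EGLN1 (ENSG00000135766) encodes PHD2, the main oxygen sensor that hydroxylates HIF alpha. Counts were 914, 843 and 1149 in Ctrl and 2787, 2505 and 2273 in NE libraries. The groups did not overlap. The mean rose 2.60-fold, or 1.39 on the log2 scale (SE 0.14, limma adjusted p = 0.00015) and 1.17 after the GC correction (adjusted p = 0.000143). In GENCODE v44, 55.8% of the exon bases of EGLN1 are shared with ENSG00000287856 on the same strand, which was not in the table.

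HIF1A (ENSG00000100644) encodes the alpha subunit of HIF-1. It had 1119, 1189 and 1747 normalized counts in Ctrl and 2319, 1937 and 1812 in NE libraries. The groups did not overlap, but Ctrl replicate 3 and NE replicate 3 were close. The log2 fold change was 0.60 (SE 0.18, limma adjusted p = 0.0184). It was -0.03 after the GC correction (adjusted p = 0.848). The call was lost on leaving out Ctrl replicate 1, Ctrl replicate 2 or NE replicate 1, at adjusted p of 0.0632, 0.0633 and 0.0843. EGLN3, the sensor PHD3, had between 0.914 and 4.15 normalized counts and was not tested.

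HIF1A remained the more abundant alpha subunit per length. The FPKM recomputed from the recovered reads (fragments per kilobase of merged exon, scaled to the reads on genes) of HIF1A was 14.6 ± 4.03 in Ctrl and 23.9 ± 2.11 with NE (SD, n = 3 each). For EPAS1 it was 0.365 ± 0.0171 and 2.52 ± 0.227 (SD, n = 3 each). EPAS1 thus made up 2.53% ± 0.506 of the summed FPKM of both genes in Ctrl and 9.53% ± 0.355 in NE-treated cells (SD, n = 3 each), without overlap of the groups.

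The HIF targets outside glycolysis did not move as one group. Of 7 tested members 3 rose, none fell by limma at an adjusted p under 0.05, and 4 did not pass, against 24.6% of all tested genes that rose and 25.5% that fell. On GC-corrected values 2 rose. ADM and NDRG1 had negative log2 fold changes and did not pass (limma adjusted p of 0.0865 and 0.0624).

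BNIP3L (ENSG00000104765), a mitophagy receptor, had 853, 900.1 and 1108 normalized counts in Ctrl and 1798, 1785 and 1749.9 in NE libraries. The groups did not overlap. Its log2 fold change was 0.91 (SE 0.12, limma adjusted p = 0.000469) and 0.29 after the GC correction (adjusted p = 0.0244). KDM3A (ENSG00000115548), a histone H3K9 demethylase, had 807, 921 and 1252 normalized counts in Ctrl and 1822, 1709 and 1642 in NE libraries. All NE libraries were higher. This was a log2 fold change of 0.82 (SE 0.16, limma adjusted p = 0.00262) and 0.43 after the GC correction (adjusted p = 0.0236). P4HA1 (ENSG00000122884), a subunit of the collagen prolyl 4-hydroxylase, had 548, 568 and 686 normalized counts in Ctrl and 1023, 1026 and 1134 in NE libraries. These groups too were apart. This was a log2 fold change of 0.83 (SE 0.13, limma adjusted p = 0.000812) and 0.26 after the GC correction (adjusted p = 0.0666), so the call was lost.

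The other HIF targets did not pass the test. BNIP3, the paralogue of BNIP3L, had 809 to 931 normalized counts in Ctrl and 765 to 868 in NE libraries, with a log2 fold change of -0.05 (95% confidence interval -0.31 to 0.21). The vasoactive peptide gene ADM had 40.2 to 68.4 in Ctrl and 28.7 to 43.9 in NE libraries, with a log2 fold change of -0.68 (limma adjusted p = 0.0865). NDRG1, a stress-responsive gene, had 103 to 158 in Ctrl and 56.2 to 108 in NE libraries, with a log2 fold change of -0.68 (limma adjusted p = 0.0624). When corrected for GC content, the values were -0.14 for ADM (adjusted p = 0.725), -0.32 for NDRG1 (adjusted p = 0.354) and 0.06 for BNIP3 (adjusted p = 0.725). ADM and NDRG1 passed without Ctrl replicate 3, with adjusted p of 0.0121 for ADM and 0.0135 for NDRG1, and NDRG1 also without NE replicate 1 (adjusted p = 0.0340). ANKRD37 had 15.7 to 39.4 in Ctrl and 18.4 to 41.1 in NE libraries, with a log2 fold change of 0.25 (limma adjusted p = 0.658) and 0.12 after the GC correction. Its exons share 40.3% of their bases with UFSP2 on the opposite strand, and the library kit is not stated to keep the strand.

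Among the genes of transport and control, 3 of 5 fell and none rose by limma, against 25.5% and 24.6% of all tested genes. After the GC correction 1 fell (SLC16A3) and 1 rose (SLC2A1). The lactate exporter had the largest fall of all members without the correction, and was behind PGK1, PKM and ENO1 with it. SLC16A3 (ENSG00000141526) encodes MCT4, which carries lactate out of the cell. It had 6631, 6131 and 4733 normalized counts in Ctrl and 2585, 2596 and 2461 in NE libraries. Every NE library was far below every Ctrl library. The mean in NE-treated cells was 0.437 of that in Ctrl, with a log2 fold change of -1.18 (SE 0.13, limma adjusted p = 0.000219) and -0.53 after the GC correction (adjusted p = 0.0012).

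SLC2A1 (ENSG00000117394) encodes GLUT1, the main glucose importer of many tumour cells. It had 3756, 3725 and 3069 normalized counts in Ctrl and 3375, 3423 and 3239 in NE libraries. The groups overlapped, and the log2 fold change was -0.07 (95% confidence interval -0.31 to 0.18, limma adjusted p = 0.635). Its sign turned with the scaling, to 0.10 with quantile normalization (adjusted p = 0.405) and to 0.28 after the GC correction (adjusted p = 0.0246).

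PFKFB3 and PFKFB4 encode bifunctional enzymes that set the level of fructose 2,6-bisphosphate, an activator of phosphofructokinase. PFKFB3 had 510.0, 641 and 570.3 normalized counts in Ctrl and 348, 359 and 345 in NE libraries, with a log2 fold change of -0.70 (limma adjusted p = 0.00199). PFKFB4 had 238, 274 and 182 in Ctrl and 115, 146 and 106 in NE libraries, with a log2 fold change of -0.91 (limma adjusted p = 0.00523). In both the groups were apart. With the GC correction the values were -0.26 (adjusted p = 0.179) and -0.47 (adjusted p = 0.057). PDK1, the kinase that switches off pyruvate dehydrogenase, had 123, 93.3 and 156 normalized counts in Ctrl and 179.8, 134 and 185 in NE libraries. The groups overlapped, and the log2 fold change was 0.44 (limma adjusted p = 0.135). Without Ctrl replicate 3 it was 0.62 with an adjusted p of 0.0152, and after the GC correction -0.13.

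**Figure D2:**
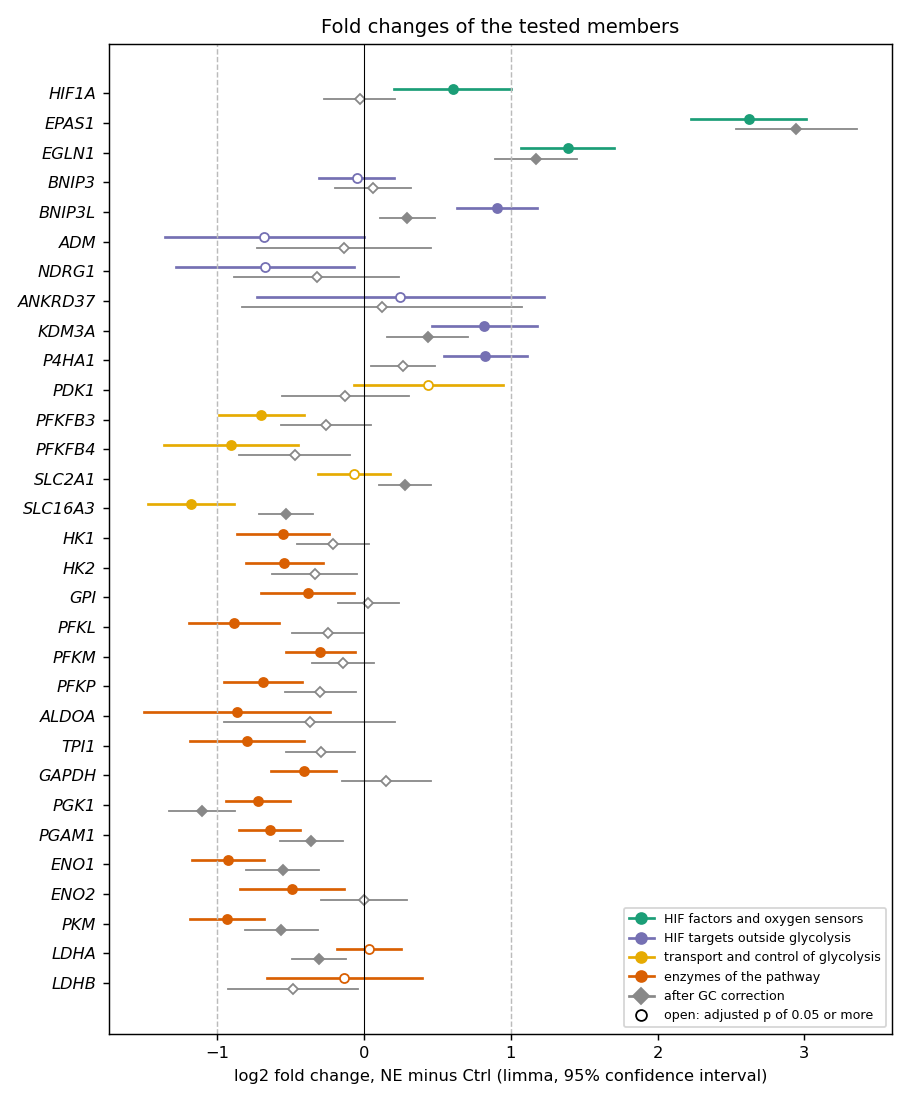
Log2 fold change of NE minus Ctrl for the 31 tested members with 95% confidence intervals from limma, in colour by role, and below each the value after the GC correction in grey diamonds. Open symbols have an adjusted p of 0.05 or more, and dashed lines mark a log2 fold change of 1 in either direction. HIF1A, BNIP3, PDK1, SLC2A1, GPI, GAPDH and LDHA lie on different sides of 0 with and without the correction.

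The enzymes of the pathway were lower in NE-treated cells at nearly every step. Of 16 tested enzymes 14 fell (87.5%, against 25.5% of all tested genes), none rose by limma, and the 2 that did not pass were the lactate dehydrogenase subunits. No enzyme was past the fold criterion. Once corrected for GC, 5 of the 16 were lower (PGK1, PGAM1, ENO1, PKM and LDHA), against 19.0% of all tested genes, and none rose. The 17 enzymes together took 1.61%, 1.62% and 1.51% of the reads on genes in the Ctrl libraries and 1.10%, 1.14% and 1.09% in the NE libraries.

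At the top of the pathway, hexokinases trap glucose in the cell, GPI converts glucose 6-phosphate to fructose 6-phosphate, and phosphofructokinase commits it to glycolysis. HK1 had 1059 to 1377 normalized counts in Ctrl and 755 to 939 in NE libraries, with a log2 fold change of -0.56 (limma adjusted p = 0.00916). HK2, the inducible form, had 1282 to 1511 in Ctrl and 872 to 1026 in NE libraries, with -0.54 (limma adjusted p = 0.00427). In both hexokinases the groups did not overlap, and neither passed after the GC correction (-0.21 and -0.34, adjusted p of 0.167 and 0.072). GPI had 12695, 12709 and 8959 normalized counts in Ctrl and 8773, 8833 and 8399 in NE libraries. Ctrl replicate 3 was close to the NE libraries. Its log2 fold change of -0.38 (limma adjusted p = 0.0461) was -0.30 on leaving out Ctrl replicate 1 or 2, with adjusted p of 0.156 and 0.166. On leaving out NE replicate 1, 2 or 3 the adjusted p was 0.101, 0.107 and 0.122, with quantile normalization 0.734, and after the GC correction the value was 0.03.

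Without the GC correction all 3 phosphofructokinase genes fell, by unequal amounts. PFKL, the liver form, had 4666, 4241 and 3472 normalized counts in Ctrl and 2476, 2225 and 1969 in NE libraries, a log2 fold change of -0.89 (limma adjusted p = 0.000874). PFKP, the platelet form, had 3173 to 3609 in Ctrl and 1938 to 2449 in NE libraries, a log2 fold change of -0.69 (limma adjusted p = 0.00146). PFKM, the muscle form, had 1351 to 1412 in Ctrl and 1062 to 1214 in NE libraries, a log2 fold change of -0.30 (limma adjusted p = 0.0382). The groups were apart in all 3 genes. After the GC correction the values were -0.25 for PFKL, -0.30 for PFKP and -0.15 for PFKM. None of the 3 then passed (adjusted p of 0.11, 0.061 and 0.274). The PFKM call was also lost on leaving out Ctrl replicate 1 or 2 or NE replicate 1 or 2 (adjusted p of 0.119, 0.1, 0.0959 and 0.157). In NE-treated cells PFKL made up a lower share of the summed FPKM of the 3 genes (36.5% ± 1.67 against 42.0% ± 2.44, SD, n = 3 each) and PFKM a higher share (22.9% ± 3.12 against 17.4% ± 1.49), without overlap. The share of PFKP was 40.6% in both groups. None of these shares was corrected for GC content. The GC content of the exons was 64.6% in PFKL and 50.3% in PFKM.

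Aldolase and triosephosphate isomerase split the sugar and interconvert the products. ALDOA (ENSG00000149925), the widely expressed aldolase, had a low level here, with 80.6, 73.6 and 51.0 normalized counts in Ctrl and 45.5, 29.1 and 36.6 in NE libraries. In GENCODE v44, 42.8% of its exon bases are shared with ENSG00000285043 on the same strand. That gene had 31.4 to 53.9 normalized counts in Ctrl and 12.8 to 17.4 in NE libraries, and how shared reads were counted is not given in the sources used here. The log2 fold change of ALDOA was -0.86 (limma adjusted p = 0.029), and -0.37 after the GC correction (adjusted p = 0.307). The call was lost on leaving out Ctrl replicate 1 or 2 or NE replicate 2 or 3 (adjusted p of 0.109, 0.0933, 0.104 and 0.071). ALDOC had 0 to 10.4 normalized counts in Ctrl and 5.93 to 11.9 in NE libraries and was not tested.

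TPI1 had 15625.5, 15969.6 and 9997 normalized counts in Ctrl and 7199.6, 8189 and 8030.3 in NE libraries. The groups did not overlap, with Ctrl replicate 3 the lowest of its group. Its log2 fold change was -0.80 (limma adjusted p = 0.00447) and -0.30 after the GC correction (adjusted p = 0.0544).

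In the lower part of the pathway, where ATP is made, GAPDH was the most abundant member. GAPDH (ENSG00000111640) oxidises glyceraldehyde 3-phosphate. It had 91196, 92016 and 89244 normalized counts in Ctrl and 69969.7, 71011 and 63886 in NE libraries. The groups were well apart. GAPDH had a log2 fold change of -0.41 (SE 0.10, limma adjusted p = 0.00705), and its sign turned to 0.15 after the GC correction (adjusted p = 0.424).

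PGK1 (ENSG00000102144), phosphoglycerate kinase, lies on chromosome X. It had 13592, 13949.5 and 13737 normalized counts in Ctrl and 7591, 8520.1 and 8963 in NE libraries. The Ctrl libraries were close to each other and far above the NE libraries. PGK1 had a log2 fold change of -0.72 (SE 0.10, limma adjusted p = 0.000488), and -1.11 after the GC correction (adjusted p = 4.88e-05). With a GC content of 43.0%, PGK1 had the lowest GC content of the 17 members that fell.

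PGAM1 (ENSG00000171314), phosphoglycerate mutase, had 8936, 9253 and 9007 normalized counts in Ctrl and 5793, 6127 and 5495 in NE libraries. The groups did not overlap. PGAM1 had a log2 fold change of -0.64 (SE 0.09, limma adjusted p = 0.000606) and -0.36 after the GC correction (adjusted p = 0.018).

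ENO1 (ENSG00000074800), the ubiquitous enolase, had 62572, 62840.3 and 55024.5 normalized counts in Ctrl and 34044, 31977 and 28784 in NE libraries. PKM (ENSG00000067225), pyruvate kinase, had 65474, 65378 and 56363 in Ctrl and 35401, 32993 and 29746 in NE libraries. The mean of the NE libraries was 0.525 of the Ctrl mean in ENO1 and 0.524 in PKM, with no overlap in either gene. The log2 fold changes were -0.93 for ENO1 (SE 0.11, limma adjusted p = 0.000269) and -0.93 for PKM (SE 0.11, limma adjusted p = 0.000296). Their GC-corrected values were -0.56 and -0.57, with adjusted p of 0.00427 and 0.004. ENO2, the neuronal enolase, had 581 to 729 normalized counts in Ctrl and 403 to 571 in NE libraries. Its log2 fold change of -0.49 (limma adjusted p = 0.0275) was -0.00 after the GC correction. This call too was lost on leaving out Ctrl replicate 1 or 2 or NE replicate 1 or 2 (adjusted p of 0.0938, 0.0776, 0.106 and 0.0966).

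The lactate dehydrogenase subunits did not pass the test without the GC correction. LDHA (ENSG00000134333), the subunit that favours lactate formation, had 9294, 9634 and 10835 normalized counts in Ctrl and 10071, 10062 and 10259.9 in NE libraries. The NE libraries lay within the range of the Ctrl libraries. LDHA had a log2 fold change of 0.03 (95% confidence interval -0.18 to 0.25, limma adjusted p = 0.793). LDHA changed direction with the scaling, with a rise of 0.38 under quantile normalization (adjusted p = 0.0224) and a value of -0.31 after the GC correction (adjusted p = 0.0189). LDHB had 836, 867 and 1519 normalized counts in Ctrl and 1150.2, 926 and 780.4 in NE libraries. Its groups overlapped and Ctrl replicate 3 was the highest library, with a log2 fold change of -0.13 (95% confidence interval -0.66 to 0.39, limma adjusted p = 0.652) and -0.48 after the GC correction (adjusted p = 0.0888). It shares 33.4% of its exon bases with ENSG00000285854 on the same strand, which was not in the table. LDHA made up 82.4% ± 3.86 of the summed FPKM of the subunits in Ctrl and 84.1% ± 2.72 in NE-treated cells (SD, n = 3 each), with overlap.

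**Figure D3:**
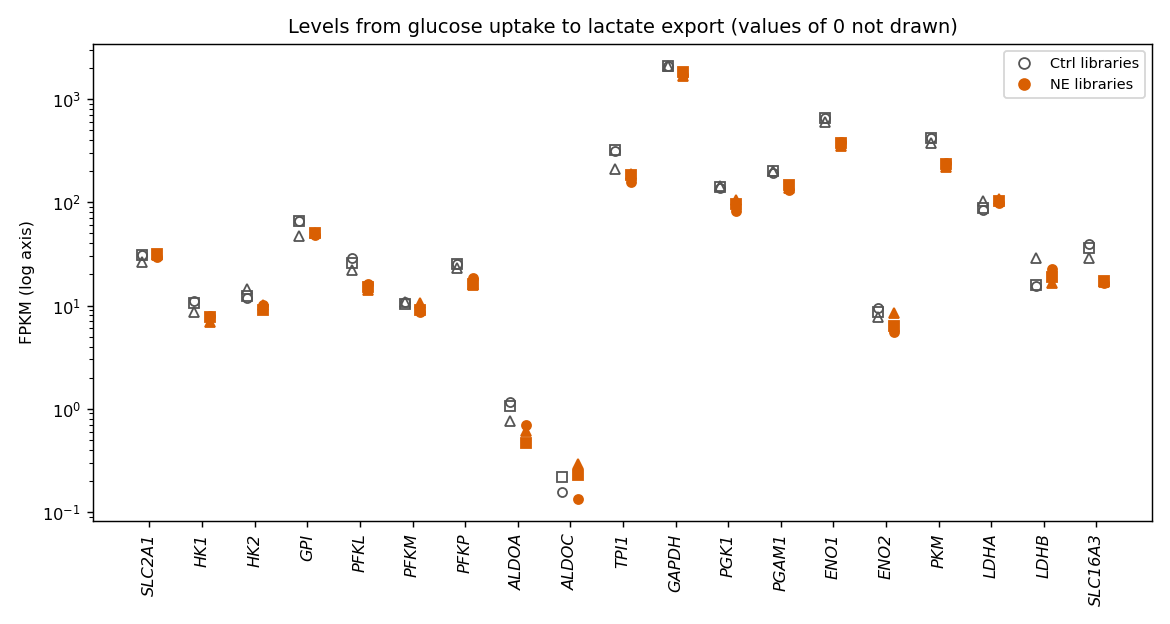
FPKM on a log axis of the genes from glucose import (left) to lactate export (right) in each library, with open grey symbols for the 3 Ctrl libraries and filled orange symbols for the 3 NE libraries. GAPDH, ENO1 and PKM are the highest, and ALDOA and ALDOC the lowest.

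Levels per length spanned a wide range along the pathway. Mean FPKM in Ctrl and NE-treated cells was 2104 and 1739 for GAPDH, 639.7 and 369 for ENO1, 404 and 233 for PKM, and 284 and 177 for TPI1. These 4 enzymes were the highest of the pathway in both groups. PGAM1 was at 198 and 139.5, PGK1 at 140.5 and 94.1, and LDHA at 91.5 and 102.7. In every library GAPDH was the highest, followed by ENO1 and then PKM. ALDOA was at 0.989 and 0.588, below every other tested enzyme. Whether reads in the exon bases that ALDOA shares with ENSG00000285043 were counted was not tested, so this level and its place in the order are uncertain. On the FPKM scale, which divides by the total reads on genes, every log2 difference is higher by 0.14 than on the scale of the normalized counts. These values are therefore given for levels and not for fold changes. The length used is that of all merged exons, such as 6026 bases for LDHA and 2983 for LDHB. The length of the transcripts present was not measured, so the order of the genes and the isozyme shares depend on this choice.

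**Figure D4:**
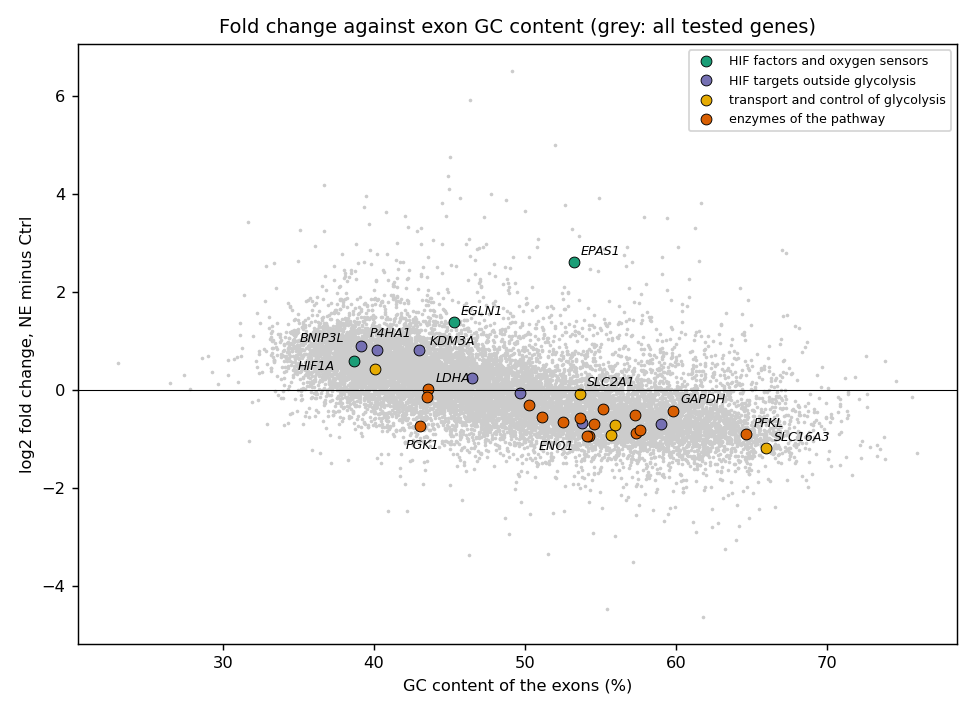
Log2 fold change (NE minus Ctrl, y axis) against the GC content of the merged exons in percent (x axis) for 14955 tested genes in grey and the 31 tested members in colour by role. The members lie within the spread of the grey points, which slopes down towards higher GC content, and EPAS1 is the highest member.

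Other genes of the HIF system did not move in 1 direction. Of 12 tested regulators 4 rose and 2 fell, against 24.6% and 25.5% of all tested genes, with a median log2 fold change of 0.04 against 0.01 over all tested genes. When corrected for GC content, 2 rose and 3 fell, against 13.0% and 19.0%. CITED2, which competes with HIF for the coactivators CREBBP and EP300, rose with a log2 fold change of 1.11 (limma adjusted p = 0.000155) and 1.17 after the GC correction. Its normalized counts were 1753, 1641 and 2089 in Ctrl and 3915, 3977 and 3858 in NE libraries. The coactivators rose too, CREBBP by 0.52 (limma adjusted p = 0.0229) and EP300 by 0.46 (limma adjusted p = 0.033) on the log2 scale. After the GC correction CREBBP was at 0.84 (adjusted p = 0.000609) and EP300 at 0.40 (adjusted p = 0.0539). Of the VHL ubiquitin ligase, CUL2 had a log2 fold change of 0.82 (limma adjusted p = 0.00347), ELOB of -0.93, RBX1 of -0.81 and ELOC of -0.24 (limma adjusted p = 0.14). With the GC correction CUL2 did not pass (0.31, adjusted p = 0.076), while ELOB (-0.53), RBX1 (-1.06) and ELOC (-0.72, adjusted p = 0.000491) were lower. ARNT and VHL did not pass, with log2 fold changes of 0.20 and -0.13.

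Of 29 tested HIF targets outside the 34 members, 14 rose and 8 fell, against 24.6% and 25.5% of all tested genes, with a median log2 fold change of 0.28. Once corrected for GC, 8 rose and 8 fell, against 13.0% and 19.0%, with a median of -0.02. The list is a hand-written one from textbook knowledge and was chosen with earlier results of these data known. Past the fold criterion 6 rose. The angiogenic factor VEGFA rose by 1.19 on the log2 scale, the mTORC1 inhibitor gene DDIT4 by 1.26, the collagen lysyl hydroxylase PLOD2 by 1.20, the nuclear receptor RORA by 1.34 and the glucose transporter SLC2A3 (GLUT3) by 1.41. The largest rise was that of PPP1R3C, a glycogen-targeting subunit of protein phosphatase 1, with 159, 168 and 242 normalized counts in Ctrl and 2150.2, 2231 and 2249 in NE libraries (log2 fold change 3.56, limma adjusted p = 3.27e-06). ANGPTL4 and IGFBP3 fell, with log2 fold changes of -1.47 and -1.11. RORA did not pass after the GC correction (adjusted p = 0.125). The corrected values were 0.47 for PLOD2, -0.89 for ANGPTL4 and -0.95 for IGFBP3, all below 1 in size, and 1.62 for VEGFA, 1.79 for DDIT4 and 3.11 for PPP1R3C.

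The glucose transporters with values in these lists were SLC2A1 and SLC2A3 only, and SLC2A3 was past the fold criterion. This is not a comparison over the whole transporter family. SLC2A3 had 1071, 1115 and 1048 normalized counts in Ctrl and 2843, 2983 and 2794 in NE libraries. All NE libraries were higher, while those of SLC2A1 overlapped with Ctrl. For SLC2A3 the log2 fold change was 1.41 (SE 0.10, limma adjusted p = 2.58e-05) and 1.20 after the GC correction.

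The routes that branch from glycolysis are described by their counts. For comparison, 24.6% of all tested genes rose and 25.5% fell, or 13.0% and 19.0% after the GC correction. The lists are short, and a difference between the routes was not tested. They also share genes with the list of HIF targets outside the 34 members. SLC2A3 is on that list and among the isozymes and regulators. PPP1R3C, GYS1 and GBE1 are on it and among the genes of glycogen metabolism. Of 9 tested further isozymes and regulators, 3 rose and 1 fell. TIGAR, a fructose 2,6-bisphosphatase, rose by 1.36 on the log2 scale (limma adjusted p = 0.0219). It did not pass after the GC correction (adjusted p = 0.0814). Of 13 genes for the entry of pyruvate into mitochondria 5 rose and none fell by limma, and pyruvate carboxylase PC was past the fold criterion with a log2 fold change of 1.05 (limma adjusted p = 0.000228) and 1.60 after the GC correction. With the correction 2 of these 13 rose and 2 fell. In the pentose phosphate pathway 5 of 7 fell and 1 rose, with TALDO1 at -0.77 and PGD at -0.52 on the log2 scale. On GC-corrected values 2 fell, with TALDO1 at -0.43 and PGD not passing (adjusted p = 0.0784). Both tested genes of gluconeogenesis fell, PCK2 with a log2 fold change of -0.98 and G6PC3 with -0.80, or -0.49 and -0.40 after the GC correction. In glycogen metabolism 3 of 8 rose and 2 fell, and after the GC correction 1 rose (PPP1R3C) and 2 fell.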

How the data were processed

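RNA-seq was done on 3 Ctrl and 3 NE libraries of NCI-H1299 cells, and each column of the table was assigned to a library by its letter and number, with 0 columns of per-sample values left unused. Per the submitters' processing notes and the methods, the authors aligned reads to hg38 with HISAT2 2.0.5 and counted them with featureCounts 1.5.0-p3. FPKM is described in the methods, whereas the signal that the authors deposited is a count per gene over a size factor, 1 for each library. The values were 100% whole multiples of 1 read in each library (tolerance 0.1), and size factors were 0.955 to 1.09. The methods used DESeq2, with an adjusted p under 0.05 and a log2 fold change of at least 1.

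These normalized counts were tested with limma 3.58.1 in R 4.3.3 (lmFit, eBayes with trend) on log2(value + 1), over genes with a mean of at least 10, with Benjamini-Hochberg adjustment over all of them. Fold changes on this scale understate low genes. Identifiers were matched to symbols, exon length and GC content (GENCODE v44 merged exons) for 25813 of 26025 genes. For the GC correction, a natural spline (5 degrees of freedom) on exon GC was fitted in each library and subtracted. On simulated data, limma recovered 95.5% of 200 genes changed by 1.5 on the log2 scale among 15023 genes, with 11 unchanged genes called. The simulation gave all genes the same dispersion and had no GC trend and no library that stood apart. Of the tested members, EPAS1 alone had a log2 fold change of 1.5 or more in size. The simulated figures therefore do not measure the recovery or the false calls among the members. With 3 libraries a group the smallest exact permutation p is 0.1. Reads carry no molecular identifiers.

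All members were named. Of the other lists, genes past the adjusted p and the fold criterion were named, and otherwise at most 4 examples a list with the lowest adjusted p. Some genes that meet the rule are not reported here. The values of ARNT, VHL, TBP and HPRT1 were added after values were seen. Members, lists and tests were chosen with earlier results of these data known. Alternatives were another pseudocount, no filter, quantile and TMM scaling, the GC correction, count tests on the recovered reads (DESeq2 1.42.0 and edgeR 4.0.16), a replicate block and each library left out. Promoter windows came from RefSeq (GRCh38.p14). Protein sequences were not used here.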

Additional observations from a re-analysis of the deposited data

How the results depend on the processing

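Fold changes of all 31 tested members kept their direction and their side of the threshold with edgeR, DESeq2, TMM scaling and a pseudocount of 0.1. EPAS1, EGLN1, ENO1, PGK1, PKM and SLC16A3 did so at the adjusted p threshold under all 15 alternatives. At the fold criterion SLC16A3 did not (-0.53 after the GC correction, -0.99 with quantile normalization), and PGK1 passed it after the GC correction (-1.105). The GC correction left 1945 tested genes higher, 513 and 398 past the fold criterion (higher and lower), 6 members lower and a median of -0.211 over the members. It turned the log2 fold change of HIF1A to -0.0316, BNIP3 to 0.05996, PDK1 to -0.128, SLC2A1 to 0.2772, GPI to 0.02917, GAPDH to 0.1505 and LDHA to -0.3077. The cause of the GC trend was not tested. Quantile normalization left 0 members lower past the fold criterion, with a median of -0.3571, and turned SLC2A1 to 0.1036. Without the filter on low values 13 members fell.

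Deviations from the group means were weakly correlated between libraries with the same replicate number (-0.163, 0.0799 and -0.151). With 3 libraries a group, these correlations cannot show whether same-numbered libraries were handled together. With a replicate block 6 members rose and 15 fell, with 3150 and 3358 tested genes higher and lower. The replicate block with GC correction gave 1414 higher and 2156 lower tested genes, 438 and 360 past the fold criterion, 2 members higher and 4 lower, a median of -0.211 and the same reversed values as the GC correction alone. Leaving out 1 library at a time gave 777 to 1512 tested genes and 1 to 6 members lower past the fold criterion, in both cases most without Ctrl replicate 3. Members that rose ranged from 5 to 7 and those that fell from 13 to 19, with medians of -0.5516 to -0.4203. The log2 fold changes that changed sign ranged from -0.0758 to 0.586 for ANKRD37, -0.0122 to 0.0984 for LDHA, -0.0905 to 0.0102 for BNIP3 and -0.2872 to 0.1434 for LDHB. EGLN3 and ALDOC were too shallow to test.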

Other observations

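GAPDH is often used as a reference gene for qPCR, and was compared with 10 other common reference genes. Of the 11 genes 6 were lower in NE-treated cells and none was higher by limma at an adjusted p under 0.05. The shares over all tested genes were 25.5% lower and 24.6% higher. ACTB, cytoskeletal actin, had 121161, 120157 and 126427 normalized counts in Ctrl and 54024, 55400.5 and 57196 in NE libraries. The groups were far apart, with a log2 fold change of -1.14 (limma adjusted p = 7.37e-05) and -0.60 after the GC correction (adjusted p = 0.0109). RPLP0 and SDHA had log2 fold changes of -0.90 and -0.81. TBP and HPRT1 did not pass, with log2 fold changes of -0.06 and -0.03. When corrected for GC content, 6 of the 11 were lower and 1 was higher, against 19.0% and 13.0% of all tested genes. The corrected values were -0.30 for HPRT1 (limma adjusted p = 0.047), -0.82 for RPLP0, -0.80 for SDHA and -0.07 for TBP. A ratio to ACTB and a ratio to TBP would therefore give different fold changes for the same gene in these libraries.

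Processed pseudogenes resemble the mRNA of several members and could share reads with it. The table held 36 of them for 10 members, of which 6 were tested. LDHAP4 was higher in NE-treated cells (log2 fold change 0.96, limma adjusted p = 0.0244), TPI1P1 was lower (-0.78, adjusted p = 0.0321), and 4 did not pass. Neither passed after the GC correction (0.70 with an adjusted p of 0.107 for LDHAP4, and -0.32 with 0.305 for TPI1P1). Their levels were low, with the highest at 0.863% of the level of its member.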
